A study of Homo sapiens with 12 samples.

Results

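TSPAN8 and 9 further tetraspanins were followed across 4 lines of A172, an adherent cell line grown from a human glioblastoma. The lines were clones transfected to overexpress hHSS1, a mock line with the empty vector and untransfected wild-type cells. The 10 genes were TSPAN8, CD9, CD63, CD81, CD82, CD151, TSPAN4, TSPAN5, TSPAN12 and TSPAN13, chosen by symbol out of 18417 genes, with the level of TSPAN8 already known. Each was read by 1 probe set. TSPAN8 is therefore described without a test, and the other 9 were tested.

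Clone 8 and clone 7 were stably transfected with pcDNA3.1 carrying hHSS1 with a 6-His tag at its C-terminal end, mock cells with the empty vector, and wild-type cells with nothing. The transfected lines were kept under G-418, and all cells were grown in DMEM with 10% fetal bovine serum and harvested after 4 days. There were 3 arrays of each line, from separate cultures. Each clone and the mock line is a single cell line, so that p-values measure the spread between cultures and not between independently made lines. Levels are log2 values from the GeneChip Human Gene 1.0 ST Array, and a difference of 1 on this scale is a doubling.

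Tetraspanins are small proteins that cross the membrane 4 times and gather integrins, growth factor precursors, proteases and each other into membrane microdomains. CD9, CD63 and CD81 are the usual markers of extracellular vesicles. TSPAN8, first described as the tumor antigen CO-029, is best known from epithelia of the gut and from carcinomas, where it has been tied to cell motility and vesicle release. CD82 is known as a suppressor of metastasis, CD151 binds laminin-receptor integrins, TSPAN5 escorts the protease ADAM10 to the cell surface, and TSPAN12 works with the Norrin receptor FZD4 in retinal vessels.

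TSPAN8 lies on the minus strand of chromosome 12 (GRCh38.p14, 71125096 to 71157999). The RefSeq promoter table held 8 of the 10 genes, and the 250 bases before the outermost start listed there for each were read. For some members, CD82 and TSPAN12 among them, that start lies inside the span of the gene in the RefSeq gene table. TSPAN8 is shown because it is the member whose level differed most between the lines, and CD82 as a member with little difference and with 1 start in the table. Capitals mark GGGCGG or its reverse complement, the GC box.
TSPAN8 (chr12:71158000-71158249, minus strand, 5′ to 3′): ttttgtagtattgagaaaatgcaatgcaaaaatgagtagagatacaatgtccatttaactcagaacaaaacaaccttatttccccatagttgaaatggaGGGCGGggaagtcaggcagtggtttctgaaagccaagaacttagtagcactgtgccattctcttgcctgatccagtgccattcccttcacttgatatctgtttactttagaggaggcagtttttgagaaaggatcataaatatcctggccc
CD82 (chr11:44565413-44565662, plus strand, 5′ to 3′): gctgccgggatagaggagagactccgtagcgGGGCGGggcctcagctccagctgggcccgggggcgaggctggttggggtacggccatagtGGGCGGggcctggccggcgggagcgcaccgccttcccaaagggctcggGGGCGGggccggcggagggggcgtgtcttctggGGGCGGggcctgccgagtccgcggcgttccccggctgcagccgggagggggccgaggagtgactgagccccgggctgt

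The TSPAN8 window was poor in CpG. It held 1 CpG, inside its only GC box, and was 40.8% G and C, and 6.06% of all 35116 windows held fewer CpG. The 7 other matched members had 6 to 43 CpG and 50.8 to 80% G and C in theirs, and the CD82 window had 26 CpG and 4 GC boxes. GGGCGG on either strand was in 5 of the 8 windows (42.6% of all windows), CCAAT in 2 (32.0%) and TATAAA in 0 (10.7%). CCAAT read on the other strand, ATTGG, can share its last bases with GGGCGG. A second annotated start of TSPAN8 lies 190 bases further into the gene. The matches describe letters only, and nothing here measured the promoters.

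The target gene itself followed the labels in the clones but not in mock. hHSS1 (EMC10), part of the machine that places membrane proteins in the endoplasmic reticulum, had levels of 11.75 to 12.18 in clone 8, 11.57 to 12.30 in clone 7, 9.20 to 9.51 in mock and 10.43 to 11.13 in wild-type cells. Mock cells were lower than wild-type cells by 1.40 ± 0.20 SE on the log2 scale (log2 -1.40, limma, adjusted p = 0.00285), so that mock and wild-type cells were not interchangeable controls. VIM and CD44 were bright on all arrays (13.37 to 13.74 and 13.34 to 13.65 in clone 8 and clone 7 together, 13.59 to 13.73 and 13.16 to 13.55 in mock and wild-type cells together), while S100B was dim (6.03 to 6.67). Only 4 of the 10 astroglial markers averaged above the median of gene means (9.21). GFAP (8.57 to 8.92), AQP4 (6.06 to 6.38), SLC1A3, SLC1A2 and ALDH1L1 lay below it. The mean level of the 10 astroglial markers was 8.89 to 9.12 on the clone arrays, 9.03 to 9.06 in mock and 9.02 to 9.07 in wild-type cells. Within that list NES was lower in both clones than in mock (log2 -0.73 ± 0.06, limma, adjusted p = 5.89e-05). Among markers of other cells, EPCAM lay at 7.57 to 7.91, CDH1 at 7.10 to 7.50 and PECAM1 at 6.54 to 6.92, while KRT8 (13.21 to 13.76), KRT18 (13.46 to 13.80), CD68 (10.71 to 12.28), TEK (8.75 to 10.20) and ROBO4 (9.78 to 10.09) had higher values. The epithelial marker ELF3 (-0.77 ± 0.19, adjusted p = 0.0341) and the endothelial marker TEK (-0.93 ± 0.14, adjusted p = 0.00244) were also lower in both clones than in mock. ELF3 averaged 9.47 on the clone arrays, 10.24 in mock and 9.48 in wild-type cells, and other epithelial markers differed from mock in either direction. So did the leukocyte markers LCP1 (9.01 on the clone arrays, 8.26 in mock) and PTPRC (7.11 and 7.37), named after their values were seen. The mean of the 11 measured epithelial markers was 9.43 to 9.57 in clone 8, 9.44 to 9.47 in clone 7, 9.51 to 9.53 in mock and 9.33 to 9.36 in wild-type cells. The leukocyte markers (9 measured) averaged 8.53 to 8.68 in clone 8, 8.55 to 8.67 in clone 7, 8.48 to 8.52 in mock and 8.52 to 8.55 in wild-type cells, and the 8 endothelial markers 8.14 to 8.40, 8.24 to 8.28, 8.39 to 8.41 and 8.37 to 8.41 in the same order. Their part in the results was not tested.

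The arrays labelled replicate 3 of the clones stood with the other clone. After subtracting each gene's mean over the 6 clone arrays, the array labelled clone 8 replicate 3 correlated at -0.25 and -0.82 with clone 8 replicates 1 and 2 and at 0.49 and 0.41 with clone 7 replicates 1 and 2 (Pearson's r across 18417 genes, which are not independent replicates). The array labelled clone 7 replicate 3 correlated at -0.68 and -0.64 with clone 7 replicates 1 and 2, and at 0.30 and 0.72 with clone 8 replicates 1 and 2. Among the 10 tetraspanins, 10 lay nearer to clone 8 replicates 1 and 2 on the array labelled clone 7 replicate 3 (63.3% of all genes did), and 9 nearer to clone 7 replicates 1 and 2 on the array labelled clone 8 replicate 3 (55.8% of all genes). The labels were kept. For both clones against either control, values are given with and without both arrays where they bear on a result. In the contrasts of a single clone, only TSPAN8 was read without them.

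**Figure D1:**
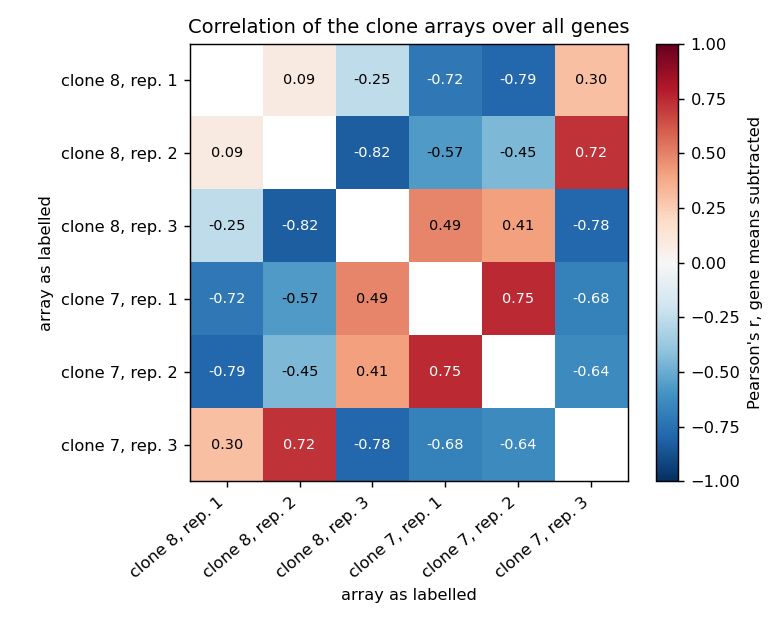
Pearson's r between the 6 clone arrays over 18417 genes, each gene's mean over these arrays subtracted, with arrays named as labelled on both axes. Clone 8 replicate 3 is blue (-0.82) against clone 8 replicate 2 and red (0.49) against clone 7 replicate 1; clone 7 replicate 3 is red (0.72) against clone 8 replicate 2.

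TSPAN8 differed between all 4 lines in group mean, highest in clone 7, then clone 8, then mock, then wild-type. Its log2 level was 8.08, 8.48 and 9.09 in clone 8, 9.77, 9.40 and 8.60 in clone 7, 7.80, 7.65 and 7.72 in mock, and 7.05, 6.92 and 7.19 in wild-type cells. All 6 clone arrays lay above all 3 mock arrays, and all mock arrays above all wild-type arrays, which in either direction held for 14.2% of all genes between both clones and mock, 15.3% between both clones and wild-type cells and 28.9% between mock and wild-type cells. The 2 clones overlapped with each other. The group means were 8.55 ± 0.51 in clone 8, 9.26 ± 0.60 in clone 7, 7.72 ± 0.08 in mock and 7.05 ± 0.13 in wild-type cells (SD, n = 3 each).

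**Figure D2:**
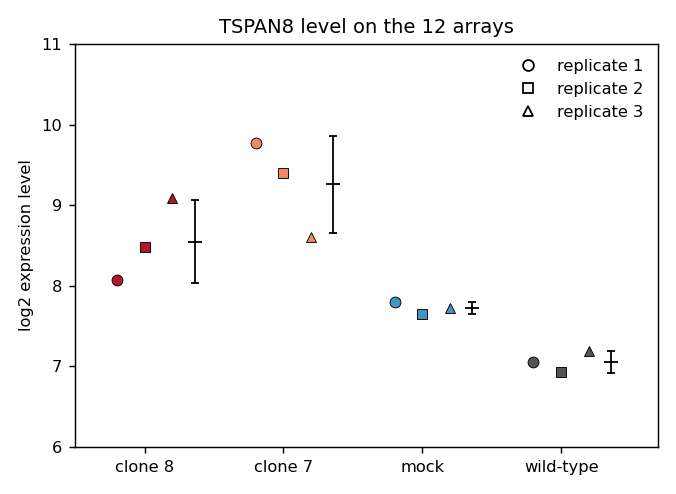
Log2 level of TSPAN8 on the 12 arrays in clone 8, clone 7, mock and wild-type cells. Symbols mark replicates 1 to 3, and the bar beside each group gives its mean and SD. The 6 clone arrays lie between 8.08 and 9.77, above mock (7.65 to 7.80), which lies above wild-type (6.92 to 7.19).

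On the fit over all 12 arrays, both clones together exceeded mock by 1.18 ± 0.23 SE in TSPAN8 (2.27-fold) and wild-type cells by 1.85 ± 0.23 (3.60-fold). Clone 8 exceeded mock by 0.83 ± 0.27 and clone 7 exceeded mock by 1.54 ± 0.27. Mock exceeded wild-type cells by 0.67 ± 0.27, that is, 1.59-fold in the line with the empty vector. In this 1 line the vector, G-418 and the line itself cannot be told apart. These standard errors share 1 estimate of the spread over the 4 groups, in which TSPAN8 varied by an SD of 0.51 and 0.60 within clone 8 and clone 7 and of 0.08 and 0.13 within mock and wild-type cells. Its SD exceeded that of 98.6% of genes in clone 8 and of 99.3% in clone 7. The level in wild-type cells was near the lower quartile of all probe sets on the arrays (7.00 to 7.12). TSPAN8 exceeded 14.1 to 17.1% of genes on the wild-type arrays and 22.9 to 25.7% on the mock arrays. At such levels background cannot be told from signal without detection calls, which leaves the folds over wild-type cells and over mock uncertain.

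Clone 8 minus clone 7 was -0.71 ± 0.27. It was -0.45 without clone 7 replicate 1, -0.47 without clone 8 replicate 1, and -1.31 without both arrays labelled replicate 3. Without those 2 arrays, TSPAN8 exceeded mock by 0.56 in clone 8 and by 1.86 in clone 7, against 0.83 and 1.54 with them, while both clones together exceeded mock by 1.21 and wild-type cells by 1.88. The order of the clones was therefore kept, and its size rested on which arrays were counted.

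**Figure D3:**
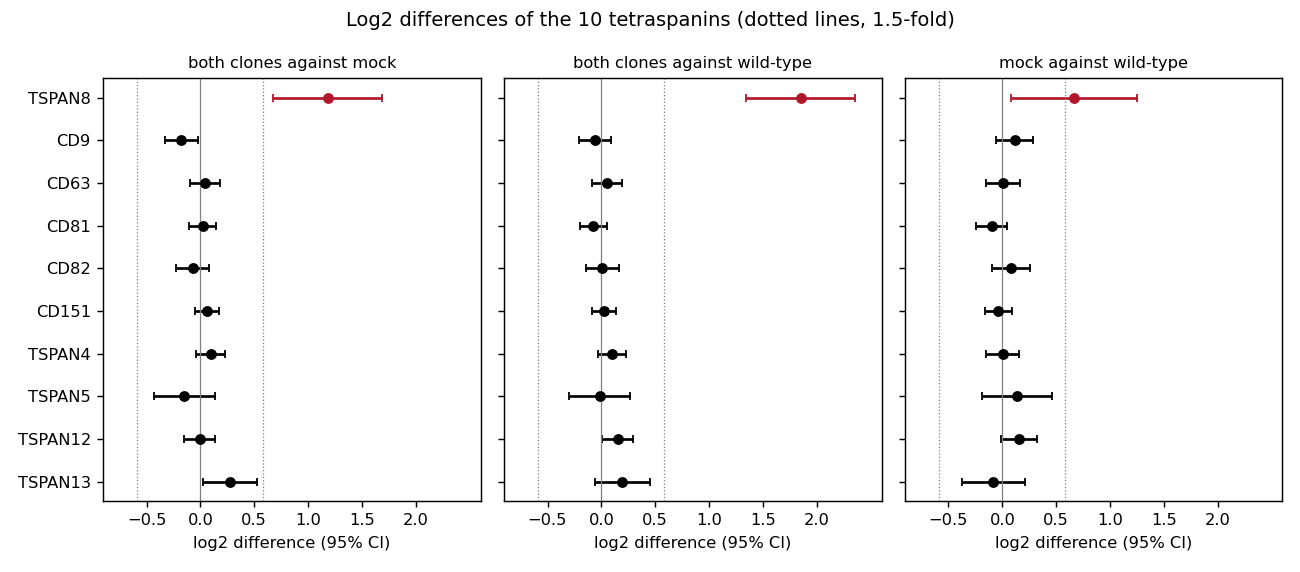
Log2 differences of the 10 tetraspanins with their 95% confidence intervals, for both clones against mock, both clones against wild-type and mock against wild-type. TSPAN8 (red, described without a test) lies at 1.18, 1.85 and 0.67, and the other 9 lie between -0.18 and 0.28 in every panel. The interval of TSPAN8 carries no test, since the gene was chosen with its level known. Dotted lines mark 1.5-fold.

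None of the other 9 tetraspanins passed the test in any contrast. A gene was called at an adjusted p under 0.05 (limma, Benjamini-Hochberg over 18417 genes) and at least 1.5-fold. Of the 9, 0 were called in both clones against mock (0.728% of all genes were), 0 in clone 8 against mock (0.76%), 0 in clone 7 against mock (0.7%), 0 in both clones against wild-type (1.58%), 0 in mock against wild-type (0.673%) and 0 in clone 8 against clone 7 (0%). The adjusted p alone also gave 0 in each contrast, where it held for 6.38%, 5.09%, 3.14%, 9.95%, 2.24% and 0% of all genes in that order. An unadjusted p under 0.05 was met by 2, 2, 0, 1, 0 and 0 of the 9, and by 20%, 21.8%, 14.7%, 25.1%, 12.1% and 7.21% of all genes. The 95% intervals of both clones against mock reached at most 0.53 on the log2 scale (1.44-fold) for these 9 genes, and those of clone 8 against mock at most 0.63 (1.55-fold). With 0 to 1.58% of all genes called, a count of 0 among 9 is near the background, and it does not show that the levels were equal. In clone 8 against clone 7, the arrays labelled replicate 3 stood with the other clone, and 0 of all genes were called. That contrast cannot tell whether a member differed between the clones.

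**Figure D4:**
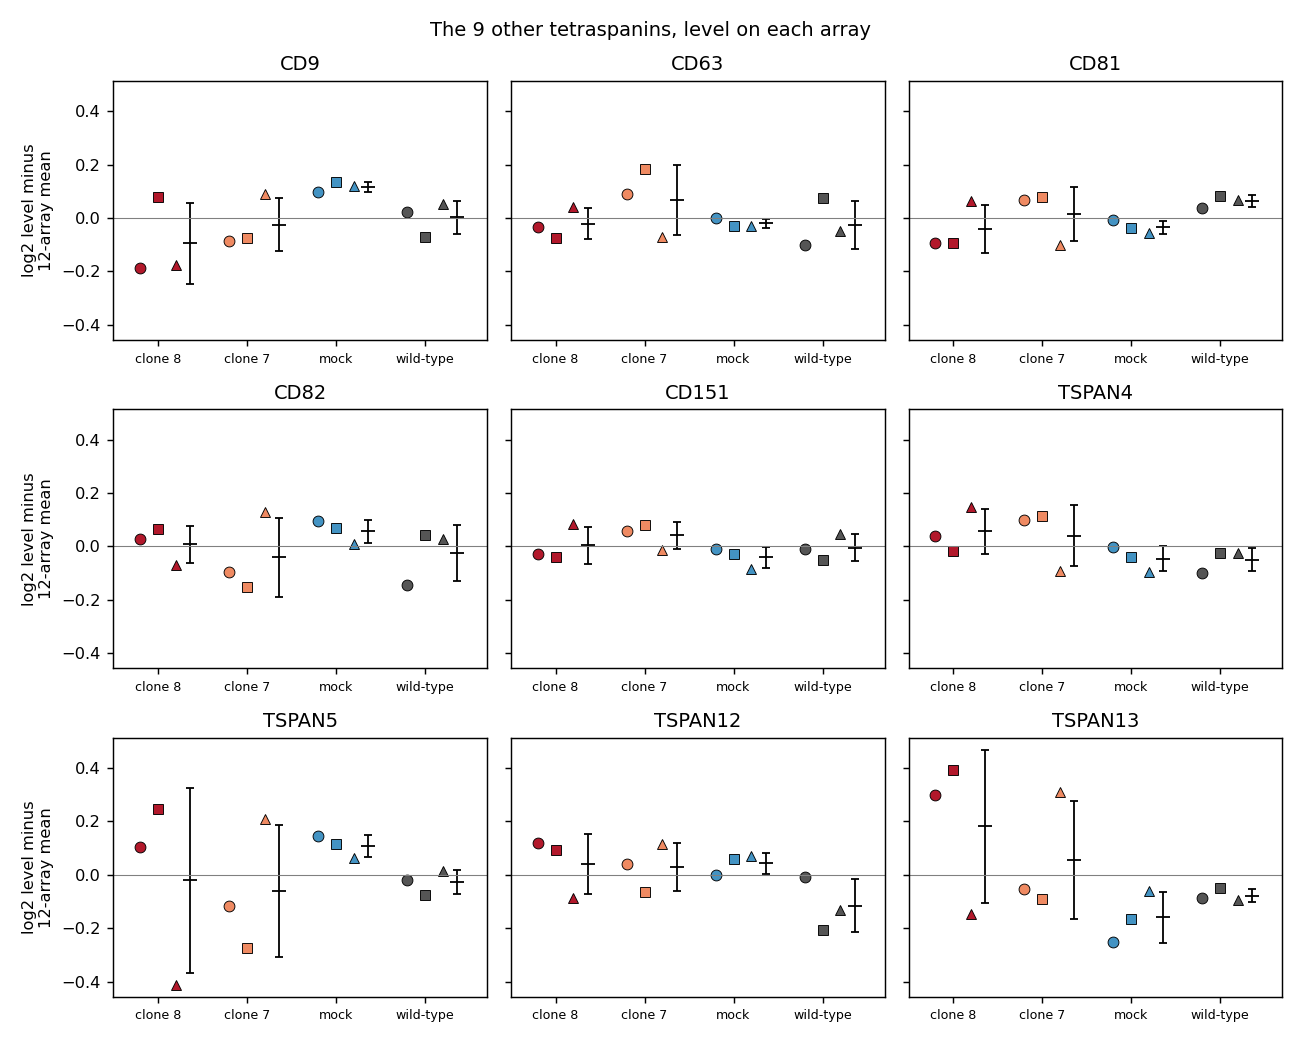
Log2 level of each of the 9 other tetraspanins minus its own mean over the 12 arrays, in clone 8, clone 7, mock and wild-type cells. Symbols mark replicates (circle 1, square 2, triangle 3), and bars give the group mean and SD. TSPAN5 and TSPAN13 spread widest within the clones, where the triangles stand apart from the circles and squares.

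The vesicle markers CD9, CD63 and CD81 stayed within narrow ranges. CD9, which also binds integrins and growth factor precursors, had levels of 10.96, 11.23 and 10.97 in clone 8, 11.06, 11.07 and 11.23 in clone 7, 11.24, 11.28 and 11.27 in mock and 11.17, 11.08 and 11.20 in wild-type cells. All 6 clone arrays lay below the mock arrays, as for 14.2% of all genes in either direction, and overlapped with wild-type cells. The difference between both clones and mock was -0.18 ± 0.07 (limma, adjusted p = 0.165), the lowest value among the 9. CD63, a tetraspanin of late endosomes and lysosomes, ranged from 11.54 to 11.80 on the clone arrays, 11.58 to 11.61 in mock and 11.51 to 11.69 in wild-type cells, with a difference between both clones and mock of 0.04 ± 0.06 (adjusted p = 0.775). CD81, a coreceptor of B cells and an entry factor of hepatitis C virus, ranged from 13.92 to 14.10 on the clone arrays, 13.96 to 14.01 in mock and 14.06 to 14.11 in wild-type cells, and differed between both clones and mock by 0.02 ± 0.06 (adjusted p = 0.891). Its mock arrays lay below its wild-type arrays by -0.10 ± 0.07 (adjusted p = 0.680). Mock and wild-type arrays did not overlap for 28.9% of all genes. Among the 9, mock lay wholly above in 3 (CD9, TSPAN5 and TSPAN12) and wholly below in 1 (CD81).

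The adhesion tetraspanins CD82 and CD151 and the migration tetraspanin TSPAN4 had differences under 0.10 between both clones and either control. CD82 ranged from 9.89 to 10.17 on the clone arrays, 10.05 to 10.14 in mock and 9.90 to 10.09 in wild-type cells, and both clones minus mock was -0.07 ± 0.07 (adjusted p = 0.630). CD151 ranged from 13.68 to 13.80 on the clone arrays, 13.63 to 13.71 in mock and 13.67 to 13.77 in wild-type cells, and the difference was 0.06 ± 0.05 (adjusted p = 0.552). TSPAN4, which is found in migrasomes, the vesicles left behind by migrating cells, ranged from 11.66 to 11.89 on the clone arrays, 11.65 to 11.74 in mock and 11.65 to 11.72 in wild-type cells. Its difference between both clones and mock was 0.09 ± 0.06 (adjusted p = 0.440).

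TSPAN5 and TSPAN13 had the widest spread of the 9 within the clones, with SDs of 0.35 and 0.29 in clone 8 and of 0.25 and 0.22 in clone 7. TSPAN5 had levels of 10.32, 10.46 and 9.81 in clone 8, 10.10, 9.94 and 10.43 in clone 7, 10.36, 10.34 and 10.28 in mock and 10.20, 10.14 and 10.24 in wild-type cells. Its high clone arrays were clone 8 replicates 1 and 2 and the array labelled clone 7 replicate 3. The clone arrays overlapped with mock and with wild-type cells, and the mock arrays lay above the wild-type arrays. Both clones minus mock was -0.15 ± 0.13 (limma, adjusted p = 0.588). TSPAN13 was high on the same 3 clone arrays, with 8.06, 8.15 and 7.61 in clone 8, 7.71, 7.67 and 8.07 in clone 7, 7.51, 7.59 and 7.70 in mock and 7.67, 7.71 and 7.66 in wild-type cells. Both clones exceeded mock by 0.28 ± 0.12 (1.21-fold, adjusted p = 0.196), the highest value among the 9, and the arrays of the 2 groups overlapped.

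Without the 2 arrays labelled replicate 3, that difference of TSPAN13 was 0.30 ± 0.06 (adjusted p = 0.00548) against mock and 0.21 (adjusted p = 0.0234) against wild-type cells, both under 1.5-fold. The arrays left out there were chosen for standing apart, which by itself narrows the spread. The other 8 members had adjusted p-values from 0.0902 to 0.979 against mock without those arrays. TSPAN12 had levels of 7.67, 7.64 and 7.46 in clone 8, 7.59, 7.48 and 7.66 in clone 7, 7.54, 7.61 and 7.62 in mock and 7.54, 7.34 and 7.42 in wild-type cells, close to the dim end of the arrays. Its levels in both clones exceeded wild-type cells by 0.15 ± 0.07 (adjusted p = 0.180), and the groups overlapped.

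Among the tetraspanins other than TSPAN8 the whole human family holds 32 genes, of which 31 had a probe set with a single symbol. Of these, 0 were called in both clones against mock and 1 in both clones against wild-type, TSPAN7, which fell (0.728% and 1.58% of all genes were called, so that 1 of 31 is near the background). TSPAN7 is a tetraspanin of neurons and other cells. Its levels were 7.20, 7.22 and 7.47 in clone 8, 7.46, 7.41 and 6.95 in clone 7, 7.60, 7.42 and 7.55 in mock and 7.96, 8.07 and 8.15 in wild-type cells. All clone and mock arrays lay below all wild-type arrays. The difference was -0.78 ± 0.11 between both clones and wild-type cells (limma, adjusted p = 0.000793) and -0.54 ± 0.12 between mock and wild-type cells (adjusted p = 0.0418, under 1.5-fold, and up to 0.201 in the alternatives), against -0.24 ± 0.11 between both clones and mock (adjusted p = 0.235). With TSPAN8 and TSPAN7, mock cells thus lay between wild-type cells and the clones in the group means.

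By the adjusted p alone, 2 of the 31 differed between both clones and mock (6.38% of all genes did), both named here after their values were seen. TSPAN15, which like TSPAN5 binds ADAM10, was lower, at 10.13, 10.34 and 10.44 in clone 8 and 10.51, 10.59 and 10.38 in clone 7, against 10.86, 10.81 and 10.75 in mock and 10.77, 10.72 and 10.80 in wild-type cells. Its clone arrays all lay below the controls, by -0.41 ± 0.07 against mock (limma, adjusted p = 0.00555) and -0.37 ± 0.07 against wild-type cells (adjusted p = 0.00688). TSPAN1, an epithelial tetraspanin, was higher in both clones by 0.24 ± 0.06 than in mock (adjusted p = 0.0287, up to 0.178 in the alternatives) and by 0.30 ± 0.06 than in wild-type cells (adjusted p = 0.00660). The remaining member that differed by the adjusted p alone in a clone contrast was CD37, a leukocyte tetraspanin, 0.23 ± 0.07 higher in both clones than in wild-type cells (adjusted p = 0.0482). TSPAN14, a further ADAM10 partner, was split within each clone as TSPAN5 was, at 12.08, 12.20 and 11.39 in clone 8 and 11.31, 11.38 and 12.16 in clone 7, against 11.79, 11.73 and 11.68 in mock and 11.22, 11.37 and 11.32 in wild-type cells. The median difference of the 31 genes between both clones and mock was 0.02, against 0.01 over all genes.

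Genes whose proteins bind tetraspanins or release vesicles were read from 5 lists of 44 genes, of which 42 were measured. Between both clones and mock 1 of the 42 was called, HBEGF (0.728% of all genes were called). Between both clones and wild-type cells 2 were called, PTGFRN and RAB27B (1.58%), and between mock and wild-type cells 1, RAB27B (0.673%). The median difference over the 42 genes was -0.02 in both clones against mock (0.01 over all genes) and 0.01 in both clones against wild-type (0.03 over all genes).

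Of the 9 measured surface partners, HBEGF, the growth factor precursor and diphtheria toxin receptor held by CD9, had levels of 11.89, 11.80 and 11.23 in clone 8, 11.32, 11.29 and 12.04 in clone 7, 11.03, 10.87 and 10.95 in mock and 11.22, 11.15 and 11.43 in wild-type cells. All clone arrays lay above mock, and they overlapped with wild-type cells. The rise over mock was 0.64 ± 0.17 (1.56-fold, limma, adjusted p = 0.0459), a call that was lost when any of 9 single arrays was left out and under 4 further settings, with adjusted p-values of up to 0.192. The arrays labelled replicate 3 differed from the other 2 of their clone, and without both the difference was 0.62 ± 0.07 (adjusted p = 0.000257, with the spread narrowed by the choice of arrays). PTGFRN, an immunoglobulin-family partner of CD9 and CD81, had levels of 11.21, 11.40 and 10.82 in clone 8, 10.80, 10.86 and 11.37 in clone 7, 10.84, 10.77 and 10.77 in mock and 10.44, 10.50 and 10.40 in wild-type cells. Its clone arrays lay above wild-type cells by 0.63 ± 0.13 (adjusted p = 0.0102), a call lost through the fold limit without clone 8 replicate 2 (0.57) or clone 7 replicate 3 (0.54) and through the adjusted p without wild-type replicate 3 (0.0588).

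Of the 17 measured genes of vesicle release, RAB27B, a small GTPase that docks multivesicular bodies, was higher in the clones and in mock than in wild-type cells. Its levels were 9.47, 9.95 and 10.01 in clone 8, 10.15, 10.10 and 9.65 in clone 7, 10.12, 10.11 and 10.14 in mock and 8.98, 9.13 and 8.96 in wild-type cells. All transfected arrays lay above all wild-type arrays. The differences from wild-type cells were 0.86 ± 0.13 in both clones (1.82-fold, limma, adjusted p = 0.00114) and 1.10 ± 0.14 in mock (2.14-fold, adjusted p = 0.00142), and both were called under each of the 18 settings run. RAB27A, its relative, had a difference between both clones and mock of -0.34 ± 0.09 (adjusted p = 0.0460), and FLOT2, a lipid raft scaffold, of -0.21 ± 0.06 (adjusted p = 0.0413), both under 1.5-fold, and in the alternatives the adjusted p rose to 0.203 for RAB27A and 0.198 for FLOT2.

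The 7 integrin partners, the 5 membrane proteases and cargo genes and the 4 genes of the Norrin receptor complex had 0 calls in both clones against mock, with 2, 0 and 1 genes at an unadjusted p under 0.05 (0.728% and 20% of all genes met these limits). By the adjusted p alone, 6 of the 42 partners differed between both clones and mock, 2 higher and 4 lower, against 6.38% of all genes. Besides HBEGF, RAB27A and FLOT2 these were 3 genes under 1.5-fold. ITGA6, the laminin-receptor subunit bound by CD151 and TSPAN8, was lower by -0.32 ± 0.06 (limma, adjusted p = 0.00544), and FZD4, the receptor served by TSPAN12, was higher by 0.25 ± 0.05 (adjusted p = 0.0124, up to 0.0911 in the alternatives). CD46, a complement regulator on the cell surface, was lower by -0.20 ± 0.05 (adjusted p = 0.0384, up to 0.230 in the alternatives). ITGA4, which is reported to pair with TSPAN8, was split within each clone, at 8.83, 9.12 and 10.18 in clone 8 and 10.49, 10.49 and 9.10 in clone 7, against 9.55, 9.54 and 9.47 in mock and 9.40, 9.50 and 9.54 in wild-type cells. The partners under 1.5-fold and ITGA4 were named after their values were seen.

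The genes next to TSPAN8 on chromosome 12 were read in order. LGR5, a receptor of R-spondins and a marker of intestinal stem cells, follows TSPAN8 with 281129 bases and 0 other protein-coding genes between them. Its levels were 8.33, 8.95 and 7.68 in clone 8, 7.77, 7.68 and 8.62 in clone 7, 7.00, 6.93 and 6.81 in mock and 7.20, 7.29 and 6.93 in wild-type cells. All clone arrays lay above all control arrays, of which several, all 3 of mock among them, were at the dim end of the arrays. Both clones exceeded mock by 1.25 ± 0.25 (2.39-fold, limma, adjusted p = 0.0109) and wild-type cells by 1.03 ± 0.25 (2.04-fold, adjusted p = 0.0208). The call against mock was lost without any 1 mock array (adjusted p from 0.0509 to 0.0642). That against wild-type cells was lost without any 1 wild-type array and with only the groups compared in the fit (adjusted p from 0.0577 to 0.115). Without both arrays labelled replicate 3, the differences were 1.27 ± 0.13 against mock (adjusted p = 0.000131) and 1.04 ± 0.13 against wild-type cells (adjusted p = 0.000266), again with the spread narrowed by the choice.

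LGR5 in mock minus wild-type cells was -0.22 ± 0.28 (limma, adjusted p = 0.879). Among the clone arrays its high values were clone 8 replicates 1 and 2 and the array labelled clone 7 replicate 3, where TSPAN8 had its 3 lowest clone values. On the other side of TSPAN8, KCNMB4, a potassium channel subunit, and PTPRB, a phosphatase of endothelial cells, differed by 0.38 ± 0.10 (adjusted p = 0.0481) and 0.31 ± 0.08 (adjusted p = 0.0443) from mock, both under 1.5-fold and with adjusted p-values of up to 0.192 and 0.208 in the alternatives. PTPRR, CNOT2, ZFC3H1, THAP2 and TMEM19 differed from mock by -0.13 to 0.12 (adjusted p from 0.275 to 0.926).

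**Figure D5:**
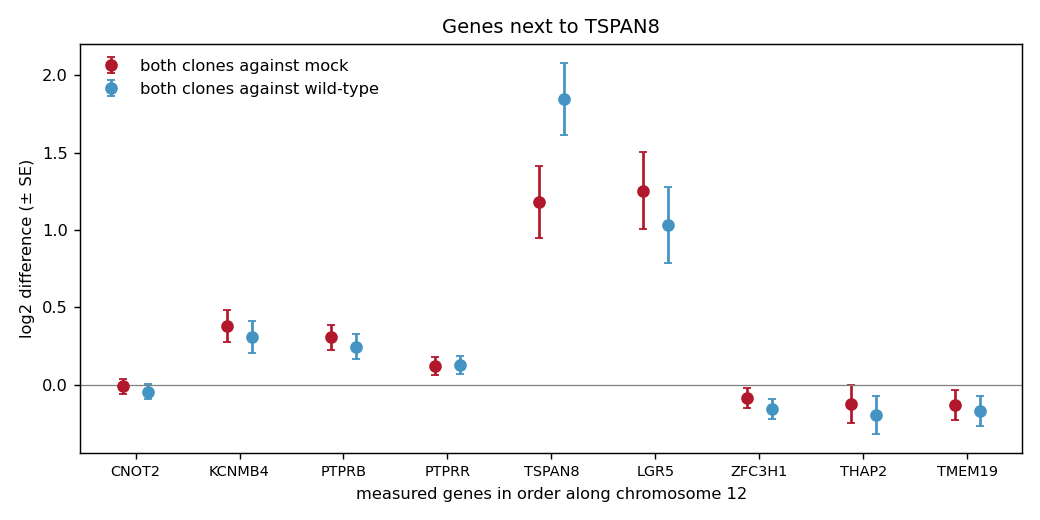
Log2 difference (± SE) of TSPAN8 and the 4 measured genes on each side of it in their order along chromosome 12, for both clones against mock (red) and against wild-type (blue). TSPAN8 (1.18 and 1.85) and LGR5 (1.25 and 1.03) stand above the other 7, which lie between -0.20 and 0.38.

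The genes most like TSPAN8 over the 12 arrays, by Pearson's r among 13811 genes with a mean above the lower quartile of gene means, were DRAM1 (0.98), ASAH1 (0.98), GNPTAB (0.98), CPA4 (0.97) and AVPI1 (0.97). DRAM1 is a lysosomal membrane protein, ASAH1 the acid ceramidase of lysosomes, and GNPTAB makes the mannose-6-phosphate tag of lysosomal enzymes. No such role is given here for CPA4 and AVPI1, and whether the genes like TSPAN8 share a function was not tested. DRAM1 had levels of 11.93, 12.16 and 12.44 in clone 8, 12.50, 12.44 and 12.20 in clone 7, 11.65, 11.73 and 11.70 in mock and 11.21, 11.22 and 11.42 in wild-type cells. It had the order of TSPAN8 among the groups, with both clones above mock by 0.58 and above wild-type cells by 0.99. The genes most opposite were ADGRB2 (-0.96), GPM6A (-0.95) and SMAD1 (-0.94). GPM6A, a neuronal membrane glycoprotein, had levels of 9.94, 10.02 and 7.53 in clone 8, 7.50, 7.29 and 10.16 in clone 7, 10.45, 10.43 and 10.38 in mock and 12.21, 12.09 and 12.13 in wild-type cells.

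An r above 0.9 was reached by 105 of the 13811 genes, or 0.760%, and the 12 points share 4 lines and the split among the clone arrays, so that these values describe the arrays and carry no test. For the other 9 tetraspanins r with TSPAN8 lay between -0.39 (CD9) and 0.72 (TSPAN4), over the same 12 arrays.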

How the data were processed

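The authors deposited log2 expression levels that they had summarized and normalized, 1 for each probe set on each array. The submitters' processing notes name Partek, and the methods name it beside dChip without saying which served A172. How probes were summarized and normalized for these arrays is not stated in the sources used. No detection call came with the values, and an array has no read depth, so the number of arrays limits precision.

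The table held 33297 probe sets on 12 arrays. Of these, 19460 had 1 symbol in the platform annotation, 1754 several and 12083 none. Of those with 1 symbol, 19429 matched the RefSeq gene table (GRCh38.p14). The probe set with the highest mean was kept per gene, leaving 18417 genes.

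Groups were fitted with a linear model in limma 3.58.1 under R 4.3.3, with 6 contrasts and Benjamini-Hochberg adjustment over all genes. Genes were called at an adjusted p under 0.05 and at least 1.5-fold. The study names this fold limit for its list of changed A172 genes, and a lower one for its network analysis. Scripts were tested on simulated data. Alternatives covered quantile normalization, the replicate number as a block, dim genes left out, every probe set tested, a trended and robust prior, only the groups compared, and each array left out. Members and lists were chosen with earlier results of these data known. Genes named were the 10 members, other tetraspanins and list partners called in any contrast (at most 4 a list), the 5 genes most like and 3 least like TSPAN8, and its 4 neighbours on each side, with others marked in the text. Motifs were searched on both strands with Python 3.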

Additional observations from a re-analysis of the deposited data

How the results depend on the processing

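The 9 tetraspanins other than TSPAN8 had 0 calls in each of the 6 contrasts under every alternative run, 960 values over 18 settings. Their differences reached at most 0.50 on the log2 scale (TSPAN13, clone 8 against mock), below the fold limit (0.585). The fold limit alone thus kept these counts at 0, which does not show a stable adjusted p. In both clones against mock the adjusted p (limma) fell to 0.0250 for CD9 and 0.0272 for TSPAN13. In clone 8 against mock it fell to 0.0158 and 0.0198. No call of a named gene reversed its direction. Uncalled differences of the 9 did change sign in places. TSPAN5 ranged from -0.26 to 0.07 in clone 8 against mock and from -0.08 to 0.08 in both clones against wild-type. TSPAN12 and TSPAN13 were not among the genes tested where dim genes were left out. No member has a second probe set, so no alternative read a member from another probe set. TSPAN8 kept its direction in every contrast: leaving out each array in turn moved it from 1.05 to 1.34 (both clones against mock), 0.56 to 1.06 (clone 8 against mock), 1.28 to 1.86 (clone 7 against mock), 1.72 to 2.01 (both clones against wild-type), 0.60 to 0.74 (mock against wild-type) and -1.04 to -0.45 (clone 8 against clone 7). Quantile normalization gave 1.15 against mock and 1.80 against wild-type for both clones.

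Of the partner lists, the 1 call in both clones against mock, HBEGF, became 0 with the replicate block, with every probe set tested, with the trended and robust variance prior and with only the groups compared, and lay between 0 and 1 when arrays were left out in turn. The same leave-one-out range was 0 to 1 in clone 8 against mock (0 with all arrays) and 1 to 2 in both clones against wild-type. The 1 call of the tetraspanin family in both clones against wild-type, TSPAN7, became 0 with genes below the lower quartile left out, since TSPAN7 is then not tested. The replicate numbers did not pair the arrays: of 18 same-numbered pairs 4 had a correlation of deviations above 0.1, from -0.83 to 0.45. The replicate block changed no other count. The setting without both arrays labelled replicate 3 was chosen after seeing the data. For both clones it left the counts at 0 members, 0 family genes and 1 partner against mock, and 0, 1 and 2 against wild-type. These counts were not made for the contrasts of a single clone. Why calls moved was not tested otherwise. The dim levels of TSPAN8 and LGR5 in mock and wild-type cells, and of TSPAN12 in wild-type cells, limit the size of their folds.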
